A study of Homo sapiens with 6 samples.

Results

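The NRF2 antioxidant pathway was examined in HCT116 cells after knockdown of NONO. The genes described are 9 of the 62492 listed per library: NFE2L2, which encodes the transcription factor NRF2, its repressor KEAP1, and the target genes NQO1, HMOX1, GCLC, GCLM, TXNRD1, SRXN1 and OSGIN1. They were chosen by name and matched by the Ensembl ID before the dot. HCT116 is a human colorectal carcinoma line, and the study asked what loss of NONO, an RNA-binding protein of paraspeckles, does to its transcriptome. PolyA RNA was sequenced from cells transfected at 20 nM either with a control siRNA (siControl, genotype WT) or with an siRNA against NONO (siNONO, genotype NONO knockdown). Each group had 3 libraries, labelled Set 1 to Set 3, and each Set holds 1 library of either group. A single siNONO duplex was used in a single cell line, so loss of NONO and other effects of that duplex cannot be told apart, and a harvest time for these libraries is not given in the sources used here.

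NRF2 is made continuously and destroyed almost as fast: KEAP1 holds it and presents it to a CUL3 ubiquitin ligase. Electrophiles and oxidants modify cysteines of KEAP1, NRF2 then escapes, pairs with a small MAF protein and binds antioxidant response elements near its target genes. BACH1 competes for the same elements and is best known as the repressor of HMOX1. The targets make glutathione, reduce thioredoxin and quinones, break down heme and supply NADPH. Control of NRF2 is thus largely at the level of the protein, which RNA-seq does not measure.

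The total estimated count per library was 32659002, 27491389 and 21765393 in siControl Sets 1 to 3 and 28715263, 28260060 and 27946591 in siNONO Sets 1 to 3. NONO itself, the siRNA target, was at 496, 495 and 516 CPM in siControl and at 89.5, 95.5 and 100.4 CPM in siNONO, where CPM is the count relative to the library total (counts per 1e+06) after scaling by edgeR's TMM factors. The siNONO libraries thus carried 18.9% of the siControl level, and the groups were far apart. Of the epithelial and intestinal markers, KRT8 was the most abundant (1251 ± 46.8 TPM in siControl and 1116 ± 80.7 TPM in siNONO, SD, n = 3 each). TPM is the level per transcript length that RSEM gives. KRT8 was not called, while EPCAM, at 236 ± 12.6 TPM in siControl and 276 ± 19.1 TPM in siNONO (SD, n = 3 each), was higher in siNONO (log2 fold change 0.32, SE 0.0308, edgeR adjusted p = 3.52e-06). KRT19 was higher as well (log2 fold change 0.14, SE 0.0364, edgeR adjusted p = 0.00731). CDX2 was present at 7.94 ± 0.506 TPM in siControl and 8.01 ± 0.640 TPM in siNONO (SD, n = 3 each), VIL1 was near 0 and CDX1 was listed at 0 in all 6 libraries. Among markers of other cell types, PTPRC and CD3E had 1 count each in 1 library and 0 in the other 5. The matched genes of that list summed to 33.0, 35.3 and 38.3 TPM in siControl and to 40.7, 38.3 and 37.1 TPM in siNONO, with COL1A1 the most abundant at 17.7 ± 1.32 TPM in siControl and 17.4 ± 1.11 TPM in siNONO (SD, n = 3 each). CD68, which is also found in lysosomes of other cells, was higher in siNONO (log2 fold change 1.40, SE 0.165, edgeR adjusted p = 1.80e-05), and so was MAP2, at 7.81 ± 0.198 TPM in siControl and 10.4 ± 1.34 TPM in siNONO (log2 fold change 0.36, SE 0.0617, edgeR adjusted p = 0.000373). The part of these markers in the results was not tested.

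Set 3 stood somewhat apart. Its siNONO library differed from those of Sets 1 and 2 by a chi-square per degree of freedom of 9.91 and 9.12, against 2.71 between Sets 1 and 2. Its siControl library differed from the others by 5.90 and 5.19, against 2.91. Mitochondrially encoded transcripts took 8.83, 9.15 and 8.80% of the counts in siControl and 10.3, 10.8 and 9.61% in siNONO, so the groups did not overlap in this share.

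Promoters were searched for the core letters of the antioxidant response element, TGACNNNGC, on both strands. Matches can overlap the AP-1 element TGACTCA, which begins with the same letters. RefSeq's promoter table (GRCh38.p14) gives 250 bases before to 50 bases after each start, and it matched 8 of the 9 genes with 11 starts. HMOX1 was not matched. Sequence outside this window was not searched, so a gene without a match here is not shown to lack the element. The letters were present at 4 of these 11 starts, those of KEAP1 (1 of its starts), GCLM and TXNRD1 (both starts), and at 13.3% of all 35116 promoters of this length. Among the 11669 promoters of genes tested the share was 15.0%. For the further NRF2 targets described below it was 33.3%, at 8 of 24 promoters. These last shares count 1 promoter per gene, while the 11 starts include more than 1 for some genes. These differences were not tested. Each match is shown with 10 bases on either side, 5′ to 3′ on the strand of the gene, with the element's letters in capitals, because these are the matches in the promoters of genes whose levels are given next. Positions were found by exact match to GRCh37.
KEAP1, minus strand, chr19:10613483-10613511, centred at -50 from the start: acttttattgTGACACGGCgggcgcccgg
KEAP1, minus strand, chr19:10613460-10613488, centred at -27: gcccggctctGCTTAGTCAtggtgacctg
GCLM, minus strand, chr1:94375002-94375030, centred at -30: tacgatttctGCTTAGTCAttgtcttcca
TXNRD1, plus strand, chr12:104609448-104609476, centred at -95: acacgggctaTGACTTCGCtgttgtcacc
TXNRD1, plus strand, chr12:104609539-104609567, centred at -4: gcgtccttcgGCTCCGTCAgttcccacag
TXNRD1, plus strand, second start, chr12:104680698-104680726, centred at -98: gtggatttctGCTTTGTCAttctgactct
KEAP1 and GCLM thus share the element TGACTAAGC, in reverse orientation and at a similar distance from the start. A match of these letters is a description of the sequence, not a binding site.

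Each of the 9 genes passed the filter on low counts. A gene was called at an adjusted p of 0.05 or less in edgeR's quasi-likelihood test, in which the Set was the block and p-values were adjusted by Benjamini-Hochberg over 17000 genes. NFE2L2, KEAP1, HMOX1, GCLM and OSGIN1 were called lower in siNONO, NQO1, SRXN1 and GCLC were called higher, and TXNRD1 was not called. Over all genes tested, 46.6% were called by the same rule, 23.2% as higher and 23.4% as lower. Without Set 3, 3 of the 9 genes were called higher and 5 lower, where 43.7% of all genes were called. Without the mitochondrial genes the members' counts were again 3 and 5, where 46.6% of all genes were called. None of the 9 genes changed by 1 or more on the log2 scale, while 489 of the 17000 genes tested were called with a change of that size. The median over the 9 genes was -0.20 on that scale, against -0.00479 for all genes tested, and it was -0.27, -0.23 and -0.10 in Sets 1, 2 and 3. With limma on log2(TPM + 1) and log2(TPM + 0.1) the median was -0.38 and -0.39, against -0.07 and -0.09 for all genes. On both of these scales 1 of the 9 genes was called higher and 5 lower, where 30.9% of all genes were called.

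**Figure D1:**
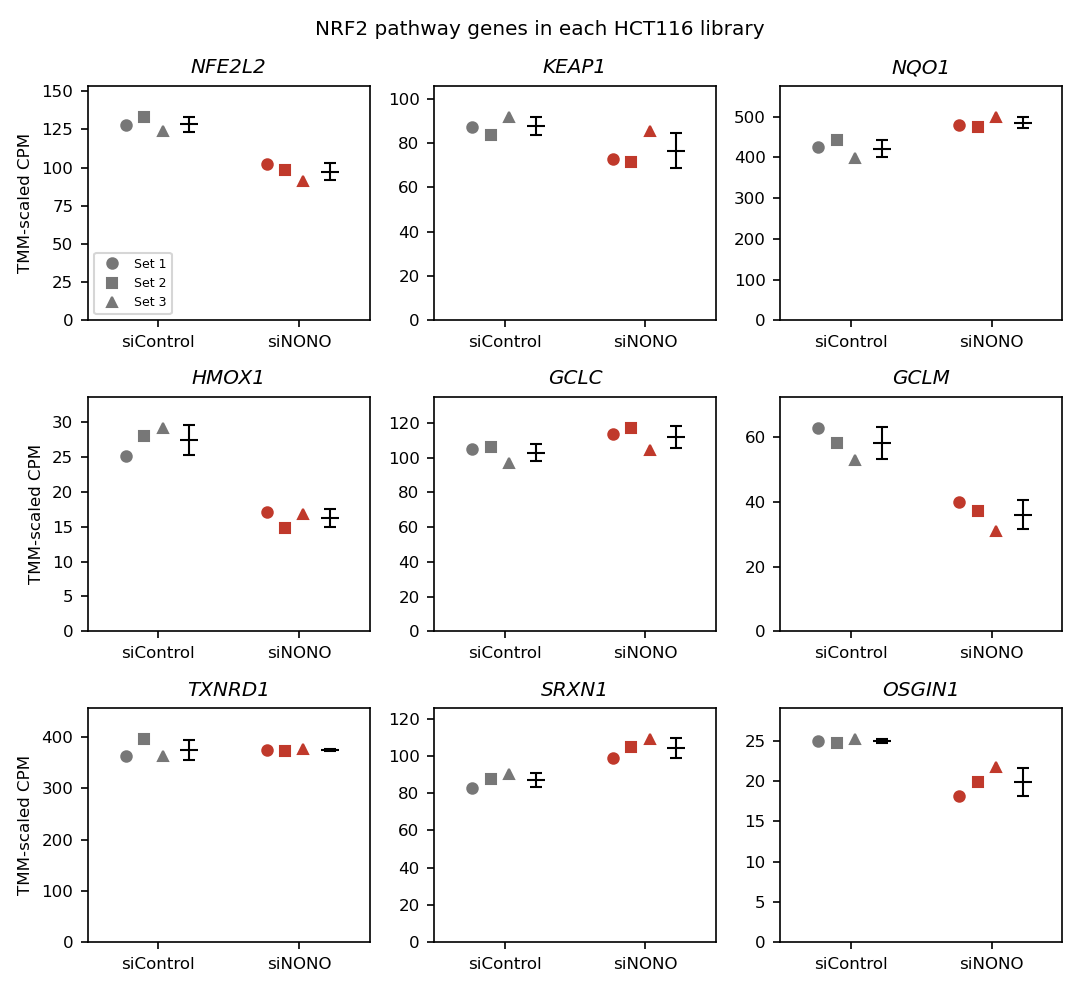
TMM-scaled CPM (y axis, from 0) of the 9 NRF2 pathway genes in each library, siControl in grey and siNONO in red, with a symbol for each Set and the mean ± SD (n = 3) beside the points. HMOX1, GCLM, NFE2L2 and OSGIN1 lie lower in every siNONO library than in any siControl library, SRXN1 and NQO1 lie higher, and KEAP1, GCLC and TXNRD1 overlap between groups.

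NFE2L2, on the minus strand of chromosome 2 of GRCh37 (178083395 to 178257484 in GENCODE version 44), was at 128, 133 and 124 CPM in siControl Sets 1 to 3 and at 102, 98.6 and 91.0 CPM in siNONO. Every siNONO library was lower than every siControl library. Its log2 fold change was -0.40 (SE 0.0362, edgeR adjusted p = 1.93e-06), which leaves 75.9% of the siControl level. Within Sets 1 to 3 the values were -0.32, -0.44 and -0.44. In RNA from bulk culture, fewer cells expressing a gene and less RNA per cell cannot be told apart. The per-length level moved the same way, from 83.0 ± 2.61 to 59.8 ± 3.83 TPM (SD, n = 3 each). Of the exon bases of NFE2L2, 17.2% are shared with the lncRNA ENSG00000213963 on the same strand, to which RSEM gave 757 counts over all 6 libraries.

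KEAP1, the repressor of NRF2 (minus strand of chromosome 19, 10596801 to 10614234), was at 87.3, 83.6 and 91.9 CPM in siControl and at 72.6, 71.2 and 85.6 CPM in siNONO. The siNONO library of Set 3 lay within the siControl range, and the other two lay under it. The log2 fold change was -0.20 (SE 0.0404, edgeR adjusted p = 0.00131), with -0.27, -0.23 and -0.10 in Sets 1, 2 and 3. Without the Set as a block it was -0.19 with an adjusted p of 0.0549 from the edgeR test, so its call depends on the pairing by Set. On the TPM scale the decrease was larger, from 60.9 ± 0.342 to 46.7 ± 5.29 TPM (SD, n = 3 each), and there the groups did not overlap.

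HMOX1 and GCLM had the lowest fold changes of the 9 genes, and their order depended on Set 2. Without the siControl or the siNONO library of Set 2, HMOX1 was at -0.65 and -0.67 on the log2 scale and GCLM at -0.70 and -0.71. Either fit removes the comparison within Set 2, so they are not separate checks. HMOX1 encodes the inducible heme oxygenase that opens heme to biliverdin, iron and carbon monoxide (plus strand of chromosome 22, 35776354 to 35790207). It was at 25.1, 27.9 and 29.2 CPM in siControl and at 17.1, 14.8 and 16.8 CPM in siNONO. The groups were clearly apart, with the highest siNONO library well under the lowest siControl library. Its log2 fold change was -0.75 (SE 0.0713, edgeR adjusted p = 2.84e-06), or 59.5% of the siControl level. The decrease was seen in each Set, at -0.55, -0.92 and -0.79 on the log2 scale. BACH1, the repressor of HMOX1, was at 40.3 ± 1.61 CPM in siControl and 42.5 ± 3.76 CPM in siNONO (SD, n = 3 each) and was not called (log2 fold change 0.08, SE 0.0533, edgeR adjusted p = 0.257).

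Glutamate-cysteine ligase, the first and rate-limiting enzyme of glutathione synthesis, is made of a catalytic subunit, GCLC, and a modifier subunit, GCLM. GCLM (minus strand of chromosome 1, 94350755 to 94375012) was at 62.9, 58.2 and 53.0 CPM in siControl and at 39.8, 37.1 and 31.0 CPM in siNONO. The groups did not overlap. Its log2 fold change was -0.69 (SE 0.0456, edgeR adjusted p = 1.09e-07) and it fell in each Set, by 0.66, 0.65 and 0.77 on the log2 scale in Sets 1, 2 and 3. GCLC (minus strand of chromosome 6, 53362139 to 53481768) was at 105.1, 106.0 and 97.1 CPM in siControl and at 113, 117 and 104.6 CPM in siNONO. The lowest siNONO library of GCLC, Set 3, was under the siControl libraries of Sets 1 and 2, so the groups overlapped, although each siNONO library was above the siControl library of its own Set. The log2 fold change of GCLC was 0.12 (SE 0.0331, edgeR adjusted p = 0.00888). This small call was lost without the Set as a block (edgeR adjusted p = 0.136), with DESeq2 (adjusted p = 0.0654), on log2(TPM + 1) with limma (adjusted p = 0.687), and in edgeR without the siControl library of Set 2 (adjusted p = 0.0639) or the siNONO library of Set 2 (adjusted p = 0.0891). The fits without a library of Set 2 both remove the comparison within that Set, so they are not separate checks.

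The balance of the subunits was compared per transcript length, a comparison chosen after the values were seen. The ratio of GCLM to GCLC in TPM was 0.532, 0.513 and 0.445 in siControl Sets 1 to 3 and 0.347, 0.296 and 0.316 in siNONO. The mean was 0.496 ± 0.0457 in siControl and 0.32 ± 0.0257 in siNONO (SD, n = 3 each), and no siNONO library reached the siControl range. Within each of the 3 Sets the ratio was lower in siNONO. Since the ratio was chosen from these values, it is given as a description. An exact permutation test that ignored the Sets gave p = 0.1. That is the smallest value it can give with 3 libraries per group, so it cannot decide the question.

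SRXN1, sulfiredoxin, which repairs over-oxidized peroxiredoxins, was the gene with the largest increase among the 9. On the minus strand of chromosome 20 (627259 to 633844), it was at 83.0, 87.8 and 90.3 CPM in siControl and at 98.8, 105 and 109 CPM in siNONO. The groups did not overlap, and the log2 fold change of 0.26 (SE 0.0338, edgeR adjusted p = 4.01e-05) was nearly the same in Sets 1, 2 and 3, at 0.25, 0.26 and 0.28. Its exons share 90.7% of their bases with another gene model on the same strand, ENSG00000270299, to which RSEM gave 0 counts in these libraries, so the value rests on that assignment.

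NQO1, a quinone reductase and the classical reporter of NRF2 activity, was the most abundant of the 9 genes (minus strand of chromosome 16, 69740899 to 69760571). It was at 425, 441 and 398 CPM in siControl and at 479, 475 and 500.0 CPM in siNONO, and every siNONO library was higher than every siControl library. Its log2 fold change was 0.20 (SE 0.0384, edgeR adjusted p = 0.000877). The increase differed between Sets, at 0.17, 0.11 and 0.33 on the log2 scale. Per length it was 521 ± 23.8 TPM in siControl and 556 ± 32.2 TPM in siNONO (SD, n = 3 each). In TPM the groups overlapped, and limma on log2(TPM + 1) gave a log2 fold change of 0.09 that was not called (adjusted p = 0.280).

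TXNRD1, the cytosolic thioredoxin reductase (plus strand of chromosome 12, 104609557 to 104744085), was at 362, 396 and 363 CPM in siControl and at 374, 372 and 375 CPM in siNONO. The siNONO libraries fell inside the siControl range. The log2 fold change was 0.0016 (SE 0.0337, edgeR adjusted p = 0.973), with a 95% interval from -0.07 to 0.07, and its sign differed between Sets.

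OSGIN1, a growth inhibitor induced by oxidative stress, had the lowest mean TPM of the 9 genes, although in siNONO its libraries overlapped those of HMOX1. It lies on the plus strand of chromosome 16 (83964916 to 83999937) and was at 25.0, 24.7 and 25.2 CPM in siControl and at 18.1, 19.8 and 21.7 CPM in siNONO. All 3 siNONO libraries of OSGIN1 were lower than the 3 close siControl values. Its log2 fold change was -0.33 (SE 0.0620, edgeR adjusted p = 0.000688), with -0.46, -0.32 and -0.22 within Sets 1 to 3. Of its exon bases, 8.22% are shared with MLYCD on the same strand, to which RSEM gave 2253 counts over all 6 libraries.

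**Figure D2:**
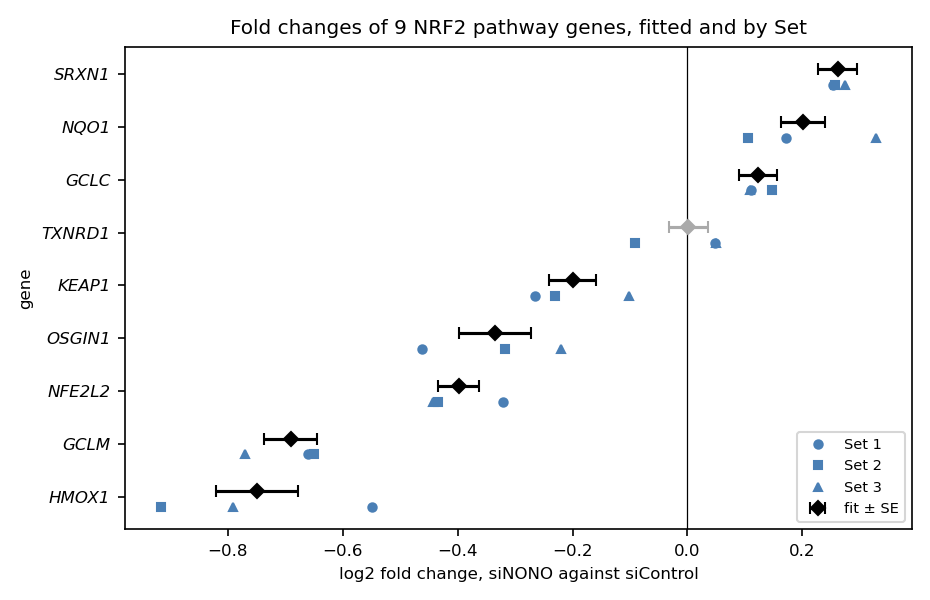
Log2 fold change of siNONO against siControl (x axis) for the 9 genes (y axis, in order of the fitted value). Diamonds are the edgeR estimate ± SE, grey where not called, and blue symbols are the log2 ratio within each Set. HMOX1 and GCLM have the lowest values, at -0.75 and -0.69, and SRXN1 the highest, at 0.26.

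Compared with one another per length, the 9 genes covered a wide range of levels. In siControl the order by mean TPM was NQO1 (521), TXNRD1 (185), NFE2L2 (83.0), GCLC (76.5), KEAP1 (60.9), SRXN1 (52.7), GCLM (37.9), HMOX1 (29.0) and OSGIN1 (22.5). Neighbours in this order did not overlap between libraries, except NFE2L2 and GCLC. In siNONO, GCLC (78.1 TPM) stood above NFE2L2 (59.8 TPM), and SRXN1 (59.4 TPM) above KEAP1 (46.7 TPM). The neighbours NFE2L2 and SRXN1, and HMOX1 (16.4 TPM) and OSGIN1 (16.1 TPM), overlapped between the siNONO libraries. The sum of the 9 genes was 1071, 1096 and 1040 TPM in siControl and 1023, 1004 and 1079 TPM in siNONO, where the groups overlapped, and NQO1 made up about as much of it as the other 8 genes together.

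The groups did not overlap in CPM for 6 of the 9 genes, 2 higher and 4 lower, against 47.8% of all genes tested in either direction, 23.9% as higher and 24.0% as lower. Over the 6 libraries, the genes nearest to NFE2L2 by the Euclidean distance of their centred log2 CPM were ADGRG6 (distance 0.0539), TULP4 (0.0574) and IDE (0.0579), among 13281 candidates (mean log2 CPM from 1 upwards) whose median distance was 0.584. ADGRG6 was at 201 ± 9.58 CPM in siControl and 149 ± 7.26 CPM in siNONO (SD, n = 3 each). The log2 fold changes of ADGRG6, TULP4 and IDE were -0.43, -0.42 and -0.38, beside -0.40 for NFE2L2.

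Of 14 genes that control or accompany NRF2, all were tested, 4 were lower and 2 were higher in siNONO by the same edgeR test, and 8 were not called, so 42.9% were called against 46.6% of all genes. The median log2 fold change of this list was 0.02. GSK3B, the kinase that marks NRF2 for a second, KEAP1-independent route of destruction, was at 43.0, 46.5 and 43.7 TPM in siControl and at 27.4, 28.2 and 24.8 TPM in siNONO (log2 fold change -0.56, SE 0.0360, edgeR adjusted p = 9.36e-08). BTRC, the ubiquitin ligase adaptor of that same route, fell too, by 0.24 on the log2 scale (SE 0.0386, edgeR adjusted p = 0.000207). NFE2L1, the related factor that drives proteasome genes, had a log2 fold change of -0.38 (SE 0.0299, edgeR adjusted p = 4.67e-07), with 381 ± 14.4 CPM in siControl and 291 ± 8.37 CPM in siNONO (SD, n = 3 each). SQSTM1, the autophagy receptor that sequesters KEAP1 and is itself an NRF2 target, had a log2 fold change of -0.24 (SE 0.0349, edgeR adjusted p = 0.000107) and was the most abundant of the list. The 2 higher genes were the small MAF gene MAFF (0.31, SE 0.0803, edgeR adjusted p = 0.00656) and PGAM5, a mitochondrial partner of KEAP1 (0.23, SE 0.0371, edgeR adjusted p = 0.000256). MAFF was not called by DESeq2 (adjusted p = 0.0915) or by limma on log2(TPM + 1) (adjusted p = 0.145) and log2(TPM + 0.1) (adjusted p = 0.138). CUL3, the scaffold of the KEAP1 ligase, had a log2 fold change of -0.01 (SE 0.0319, edgeR adjusted p = 0.80) and was not called.

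A further 39 textbook targets of NRF2 gave 36 tested genes, of which 12 were lower, 10 were higher and 14 were not called. That is 61.1% called, against 46.6% of all genes tested (23.2% higher and 23.4% lower), and the median log2 fold change was -0.02. The balance depended on the scale, with 6 higher and 12 lower by limma on either TPM scale, where 30.9% of all genes were called. GPX2, GSTM3 and CBR1 had too few counts for the test. The division of this list by role, given next, was made after the values were seen.

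Genes of heme and iron handling were lower or not called. ABCB6, a porphyrin transporter, was at 31.3, 31.7 and 35.5 TPM in siControl and at 19.6, 19.2 and 22.1 TPM in siNONO (log2 fold change -0.54, SE 0.0448, edgeR adjusted p = 8.24e-07). BLVRB, biliverdin reductase B, had a log2 fold change of -0.43 (SE 0.0452, edgeR adjusted p = 6.99e-06). The ferritin light chain gene FTL was at 3195, 3360 and 3254 TPM in siControl and at 2249, 2317 and 2543 TPM in siNONO (log2 fold change -0.38, SE 0.0343, edgeR adjusted p = 1.70e-06). The heavy chain gene FTH1, the most abundant of the list, had a log2 fold change of -0.14 (SE 0.0259, edgeR adjusted p = 0.000668). Both ferritin genes have many processed copies, among which RSEM could divide reads. The remaining 2 of the 6 genes, FECH and BLVRA, were not called. The 4 of 6 called lower stand beside 23.4% of all genes tested, and the group, formed after its values were seen, was not tested.

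Glutathione genes moved both ways. Of 7 tested, 4 were higher and 2 lower, beside 23.2% higher and 23.4% lower among all genes tested. GSS, glutathione synthetase, which adds glycine to the product of glutamate-cysteine ligase, was at 42.3, 45.1 and 51.0 TPM in siControl and at 64.8, 64.2 and 70.0 TPM in siNONO (log2 fold change 0.63, SE 0.0409, edgeR adjusted p = 9.05e-08). SLC7A11, the cystine importer, was at 16.7, 15.9 and 15.9 TPM in siControl and at 26.5, 22.2 and 20.8 TPM in siNONO (log2 fold change 0.60, SE 0.0361, edgeR adjusted p = 5.08e-08). For both genes the groups were apart. MGST2, a microsomal glutathione transferase, had a log2 fold change of 0.52 (SE 0.0727, edgeR adjusted p = 7.24e-05), and MGST1 was the fourth gene called higher. GSR, which recycles oxidized glutathione, had a log2 fold change of -0.18 (SE 0.0299, edgeR adjusted p = 0.000320), and GSTP1 was the other gene called lower. Along the route of synthesis, RNA of the importer and of the last enzyme was thus higher while that of the modifier subunit GCLM was lower. The catalytic subunit GCLC had a small log2 fold change of 0.12, called in the main fit but not in several other settings.

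Genes of NADPH supply and the pentose phosphate pathway (the NADPH genes) lay in both directions, with PGD and TKT higher and IDH1, TALDO1 and ME1 lower. These values ran from a log2 fold change of 0.31 for PGD (SE 0.0294, edgeR adjusted p = 3.06e-06) to -0.22 for IDH1 (SE 0.0323, edgeR adjusted p = 0.000131). Neither TXN nor PRDX1, the thioredoxin and peroxiredoxin genes of the list, was called. Of 8 detoxification genes tested 1 was called, beside 46.6% of all genes tested, namely UGDH (log2 fold change 0.38, SE 0.0360, edgeR adjusted p = 2.50e-06). AKR1B10, AKR1C1, AKR1C2 and AKR1C3, often the most responsive NRF2 targets in human cells, were low in both groups, with a mean in siControl from 0.307 TPM for AKR1C2 to 1.92 TPM for AKR1C3, and the AKR1C genes are close in sequence. TRIM16 (log2 fold change -0.37, SE 0.0542, edgeR adjusted p = 0.000118) and its near copy TRIM16L were lower, and reads could be divided between them. SESN2, a stress-induced sestrin, was higher (log2 fold change 0.29, SE 0.0583, edgeR adjusted p = 0.00137). Of 4 exporters tested, ABCC1 was higher, ABCC2 lower and the other 2 were not called, again beside 46.6% of all genes. These role groups were formed after the values were seen and were not tested.

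**Figure D3:**
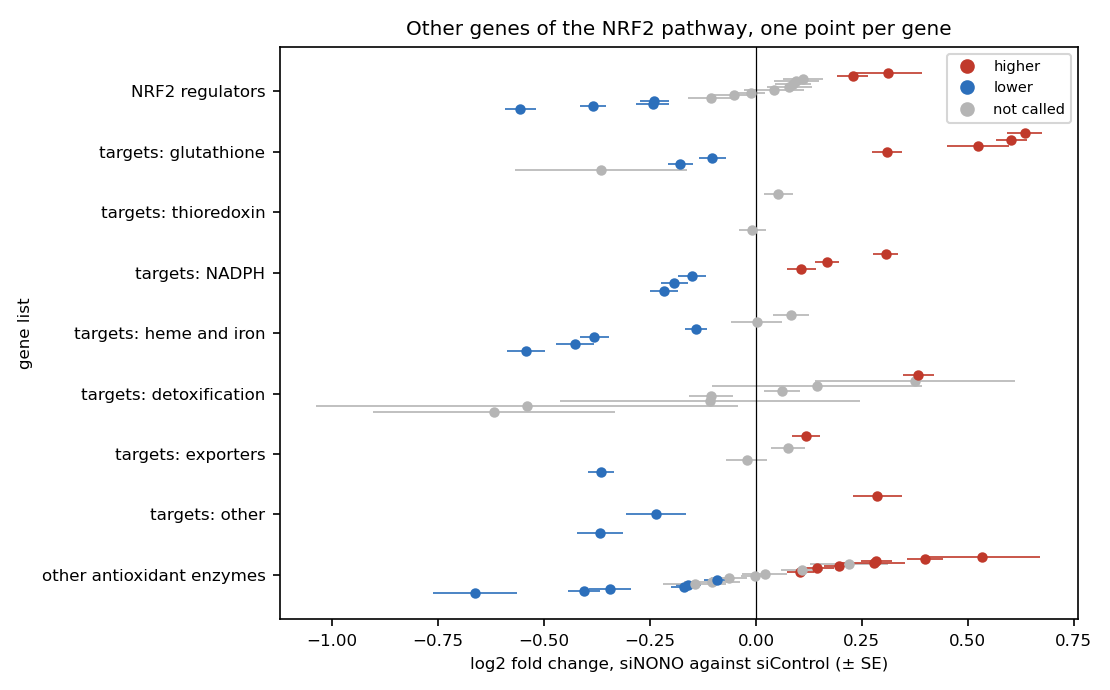
Log2 fold change of siNONO against siControl (x axis, edgeR estimate ± SE) of each tested gene in the lists of NRF2 regulators, further NRF2 targets by role and other antioxidant enzymes (y axis). Red and blue mark genes called higher and lower. All called genes of heme and iron handling lie to the left of 0, and glutathione and NADPH genes lie on both sides.

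Antioxidant enzymes that were not chosen as NRF2 targets served as a comparison. Of 22, 21 were matched and 20 tested. SOD2 was not matched, and TXNIP was listed at 0 in all libraries. By the same edgeR test 7 were higher, 6 were lower and 7 were not called (65.0% called, against 46.6% of all genes tested), with a median log2 fold change of 0.0086. The balance depended on the tool and scale, with 3 higher and 5 lower by DESeq2, where 30.7% of all genes were called, and 3 higher and 8 lower by limma on either TPM scale, where 30.9% of all genes were called. The highest was MSRA, a methionine sulfoxide reductase (0.53, SE 0.136, edgeR adjusted p = 0.00617), followed by PRDX4, the peroxiredoxin of the endoplasmic reticulum (0.40, SE 0.0422, edgeR adjusted p = 7.17e-06). The lowest were MSRB3 (-0.66, SE 0.0991, edgeR adjusted p = 0.000132) and CAT, catalase, which was at 71.0, 66.6 and 69.5 TPM in siControl and at 51.0, 48.3 and 46.0 TPM in siNONO (-0.41, SE 0.0373, edgeR adjusted p = 2.13e-06). SOD1, the most abundant of the list, had a log2 fold change of -0.09 (SE 0.0293, edgeR adjusted p = 0.0198). Genes in both directions were thus found in this list as among the NRF2 targets, and the difference between the lists was not tested.

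**Figure D4:**
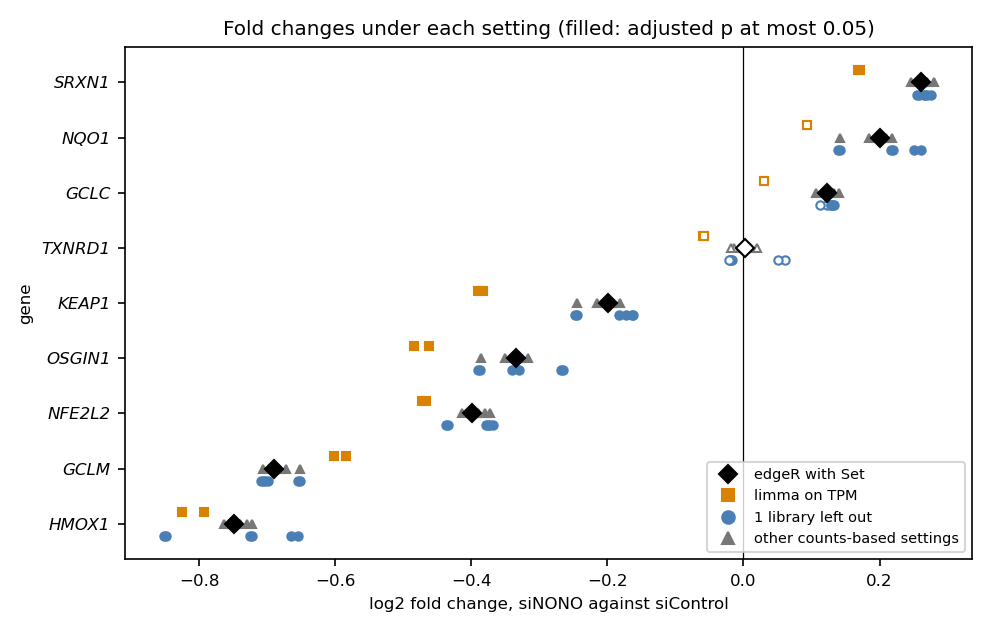
Log2 fold change (x axis) of the 9 genes (y axis) under each processing setting (black, edgeR with the Set as block; orange, limma on TPM; blue, 1 library left out; grey, other settings on counts), with filled symbols at an adjusted p of at most 0.05. HMOX1, GCLM, NFE2L2, OSGIN1 and SRXN1 are filled in all settings, NQO1 is open in both settings on TPM, and TXNRD1 is open in all and lies on both sides of 0.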

How the data were processed

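Per the study's methods and the submitters' processing notes, the authors trimmed the reads (sickle), mapped them to GENCODE 34 transcripts of GRCh37 (STAR) and quantified genes with RSEM 1.3.1. For each of the 6 libraries they deposited an estimated count per gene, not normalized and not always whole, and the TPM, which is scaled for effective length and library size. The library kit was stranded, and the strand setting of RSEM is not given in the sources used here. Estimated counts were rounded and tested in edgeR 4.0.16 (quasi-likelihood in the edgeR 3 form, TMM, filterByExpr) with the Set as block. The study's methods name a batch term in edgeR without saying that it is the Set. Scripts were tested on simulated data. There, 200 of 16742 genes were set to differ between the groups, by a smaller or a larger amount. Of these, 82 with the smaller and 99 with the larger amount were recovered. A further 23 genes that were not set to differ were called as well. The standard error is the size of the log2 fold change over the root of its F statistic. Totals were 21765393 to 32659002 counts. P-values of the main fit rest on the spread that is left after the Sets are fitted, moderated across genes. The libraries are given in the series as biological replicates.

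The labels number the Sets, and these numbers pair the libraries: across 12252 genes, which are not independent, deviations from the group means correlated at 0.289, 0.171 and 0.412 in Sets 1, 2 and 3. Between libraries of different Sets the correlations ran from -0.319 to 0.139. Those between Sets 1 and 2, at 0.139 and 0.114, were close to the value of Set 2. No library was a copy of another.

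The members and lists were chosen with earlier results of these data known. The naming rule took NONO, the 9 genes, up to 4 highest and 4 lowest called genes of each list, its 2 most abundant, and 3 genes nearest to NFE2L2, and further names were chosen after their values were seen. Symbols came from a table that matched 62162 of 62492 Ensembl IDs, and PECAM1 and SOD2 were not matched. The result of 1 gene of the further targets is not reported here. Gene coordinates are from GENCODE 44 on GRCh37, later than the authors' annotation. Alternatives also used DESeq2 1.42.0 and limma 3.58.1.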

Additional observations from a re-analysis of the deposited data

How the results depend on the processing

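Of the alternatives, those without Set 3 and without mitochondrial genes were chosen after seeing the data. NONO, NFE2L2, HMOX1, GCLM, SRXN1 and OSGIN1 kept their direction and their call in all 17 alternatives run. These alternatives are not all separate checks. With the Set as block, a library left without its partner carries no information on the siRNA effect. Leaving out the siControl library of Set 3, its siNONO library or both thus gave nearly the same NFE2L2 value (-0.373, -0.376 and -0.373). Without the replicate block, KEAP1 was at -0.19 (edgeR adjusted p = 0.0549) and GCLC at 0.12 (adjusted p = 0.136), so 2 of the 9 genes were higher and 4 lower where 36.3% of all genes were called, and the block changed no other call among them. DESeq2 with the replicate block called 5227 genes in place of 7924, GCLC at 0.12 was not called, and 1 regulator and 3 other antioxidant enzymes were higher in place of 2 and 7, with 5 of the latter lower in place of 6. On log2(TPM + 1) and log2(TPM + 0.1) limma called 5257 and 5250 genes, 31.3% and 31.2% of them higher against 49.7%, with medians of all genes of -0.07 and -0.09. There, 1 of the 9 genes, 6 further targets, 1 regulator and 3 other antioxidant enzymes were higher and 5, 12, 4 and 8 of them lower, in both cases, where 30.9% of all genes were called. The median of the 9 genes was -0.38 and -0.39. NQO1 was at 0.0931 and 0.0932 (limma adjusted p = 0.280 and 0.276) and GCLC at 0.0295 and 0.0298, neither called. The cause was not tested. TXNRD1, not called anywhere, changed sign to -0.0140 with library size alone, -0.0587 and -0.0590 on the TPM scales and -0.0177 without Set 3. When each library was left out in turn, TXNRD1 ran from -0.0209 to 0.0609, GCLC from 0.11 to 0.13 and the number of changed genes from 6497 to 7653. GCLC was not called without either library of Set 2. OSGIN1 and HMOX1, at 24.7 to 29.2 CPM in siControl, had the fewest counts of the 9 genes and the largest standard errors, 0.0620 and 0.0713.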
